A study of Mus musculus with 20 samples.

Results

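The proteasome genes described here are the 50 rows, of 23129 in the gene count table, whose symbol begins with Psma, Psmb, Psmc, Psmd, Psme, Psmf or Psmg and a digit. They comprise 19 core subunits (Psma and Psmb), 20 subunits or assembly factors of the regulatory cap (Psmc and Psmd), 5 activators (Psme), 4 assembly chaperones (Psmg) and Psmf1, an inhibitor or regulator of the core. The remaining gene, Psmc3ip, carries a matching symbol but encodes a meiotic recombination factor. Its values are given apart below, but it is included wherever all the genes are counted together. Of the 50 genes, 48 had enough counts to be tested. Psma8, the testis form of an alpha subunit, had 0 to 10 reads per library and Psmb11, the thymus-specific catalytic subunit, had 0 to 4, and neither was tested.

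The study crossed genotype with feeding in AgRP neurons, the hypothalamic neurons that drive hunger, to ask which genes respond to food deprivation and how the chromatin-binding protein PHF6 bears on that response. Wild-type (WT) mice carried AgRP-Cre/+ and Ai9/+, a tdTomato reporter, and conditional knockout (cKO) mice were littermates that carried Phf6 flox/y in addition, all C57BL/6 and 25 to 30 days old. Cre was driven by Agrp, so the reporter and the deletion both depend on that gene's promoter, and WT mice carry Cre and the reporter too. Fed mice were compared with mice whose food had been removed at 5 pm on the previous day and who had water only. Each library came from 1000 sorted tdTomato+ cells, amplified by 15 cycles of PCR, and each of the 4 groups held 5 libraries (replicates 1 to 5). The labels do not say that each replicate was a separate mouse, so the p-values measure the spread between these libraries.

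The proteasome is the protease that degrades ubiquitin-tagged proteins. Its barrel-shaped core holds alpha rings, which form a gate, and beta rings, which carry the cleaving sites; the cap binds ubiquitin chains, removes them, unfolds the substrate with ATPases and feeds it into the core. Activators open the core without ubiquitin, chaperones assemble it, and interferon-induced catalytic subunits can replace the standard ones to form the immunoproteasome.

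Total gene counts ran from 8494499 to 13573524 per library and were lower in fasted (8494499 to 10000278) than in fed mice (10604977 to 13573524). Phf6, the targeted gene, was lowest in the cKO groups, at 276 ± 10.2 CPM (the count per library, scaled to a common library size; mean ± SD, n = 5 here and below) in fed WT, 128 ± 11.0 in fasted WT, 70.7 ± 4.84 in fed cKO and 61.1 ± 6.89 in fasted cKO. Agrp and Npy, which define the sorted neurons, stood at 4554 and 16667 CPM in fed WT, 14929 and 53993 in fasted WT, 5066 and 23473 in fed cKO and 11310.5 and 45329.5 in fasted cKO, with replicates 1 and 2 the highest of each fasted group. Summed CPM of 7 microglia and macrophage markers was at most 1.84 in any library, with Cx3cr1, Csf1r, Aif1, C1qa, C1qb and Tmem119 each under 1 CPM in all 20. Markers of other cells did move with feeding: 6 astrocyte markers summed to 6.42 to 13.2 CPM in fed WT and 31.8 to 58.4 in fasted WT, 5 endothelial markers to 0.069 to 2.57 and 4.26 to 8.50, and 5 oligodendrocyte markers to 75.8 to 90.8 and 35.4 to 59.7. In cKO the same 3 sums were 27.4 to 56.8 and 40.6 to 94.1, 1.77 to 5.13 and 2.0 to 10.4, and 69.7 to 85.2 and 43.0 to 53.1. Agt made up most of the astrocyte sum (means of 5.22 CPM in fed and 35.9 in fasted WT, 35.2 and 53.7 in cKO), while Gfap and Aqp4 were under 1 CPM on average in every group, with lower means in fasted than fed WT but overlapping libraries. The 6 tanycyte and ependymal markers summed to 51.0 to 64.5 and 35.1 to 46.8 CPM in fed and fasted WT, and 40.8 to 52.8 and 28.6 to 51.3 in cKO. The 3 Pomc-neuron markers summed to 324 to 432 and 379 to 470.1 CPM in WT, and 313 to 417 and 439.6 to 1097 in cKO. The part of these markers in the differences below was not tested. In bulk libraries, a change in the number of cells of a type cannot be told apart from a change in RNA per cell.

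In fed WT neurons the 14 standard core subunits lay within 4.81-fold of each other when levels were expressed as CPM per kilobase of exon. The highest of them was Psma6, an alpha subunit, at 375 ± 9.62 CPM per kilobase, and the lowest was Psmb7, the trypsin-like catalytic subunit, at 78.04 ± 2.66. Psmb2 (374 ± 7.93) and Psma6 did not differ beyond their spread. Of the 6 cap ATPases, Psmc5 was the highest at 406 ± 12.2 and Psmc6 the lowest at 77.9 ± 2.59 CPM per kilobase. The inducible catalytic subunits were below the standard ones, Psmb8 and Psmb9 far below. Psmb8 stood at 2.62 ± 0.422 and Psmb9 at 0.396 ± 0.13 CPM per kilobase, beside 290.1 ± 11.8 for Psmb5 and 278 ± 9.86 for Psmb6. Psmb10 stood at 40.99 ± 1.997, nearer to the 78.04 ± 2.66 of Psmb7. Median levels per kilobase were 133 for the 17 tested core genes, 78.3 for the cap, 50.1 for the activators and 44.9 for the chaperones. The order of single genes depends on the length used: per kilobase of the longest transcript Psmb6 led the core at 539, and Psmb2 and Psma6 stood at 524 and 444. Across the 48 tested genes the coefficient of variation between replicates had a median of 3.45% in fed WT, 7.60% in fasted WT, 4.29% in fed cKO and 7.02% in fasted cKO.

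With fasting, most proteasome transcripts rose in both genotypes, with a larger median rise in the core than in the cap. In WT, 33 of the 48 tested genes rose and 4 fell (edgeR adjusted p under 0.05), where 29.6% of all 13237 tested genes rose and 31.3% fell. The rising genes were 68.8% of the 48, and the 4 that fell include Psmc3ip. Over the 48, the median log2 fold change was 0.35, beside -0.032 over all tested genes. In cKO, 39 of the 48 rose and 1 fell, where 26% of all tested genes rose and 27% fell, so that 81.2% of the 48 rose, with a median of 0.43 beside -0.033. All 33 genes that rose in WT also rose in cKO, and 6 more rose in cKO alone. The share of all tested genes that rose in both genotypes was not counted. The fasting comparisons of the 2 genotypes share no library, but they come from 1 fit with a shared estimate of the spread. The libraries of the fed and fasted groups did not overlap for 33 genes in WT (31 higher and 2 lower in fasted mice, 64.6% and 4.17% of the 48, beside 22.5% and 22.6% of all tested genes). In cKO they did not overlap for 36 (35 higher and 1 lower, 72.9% and 2.08%, beside 20% and 19.6%). Changes were mostly modest: Psme4 and Psmb3 in WT, and Psme4 and Psmb8 in cKO, exceeded 2-fold. Correction for GC content and gene length gave 27 rising and 9 falling in WT, beside 29.1% and 30.5% of all tested genes. In cKO it gave 34 and 2, beside 24.3% and 25.9%. The median over the 48 was then 0.20 in WT and 0.34 in cKO, beside -0.020 and -0.032 over all tested genes.

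**Figure D1:**
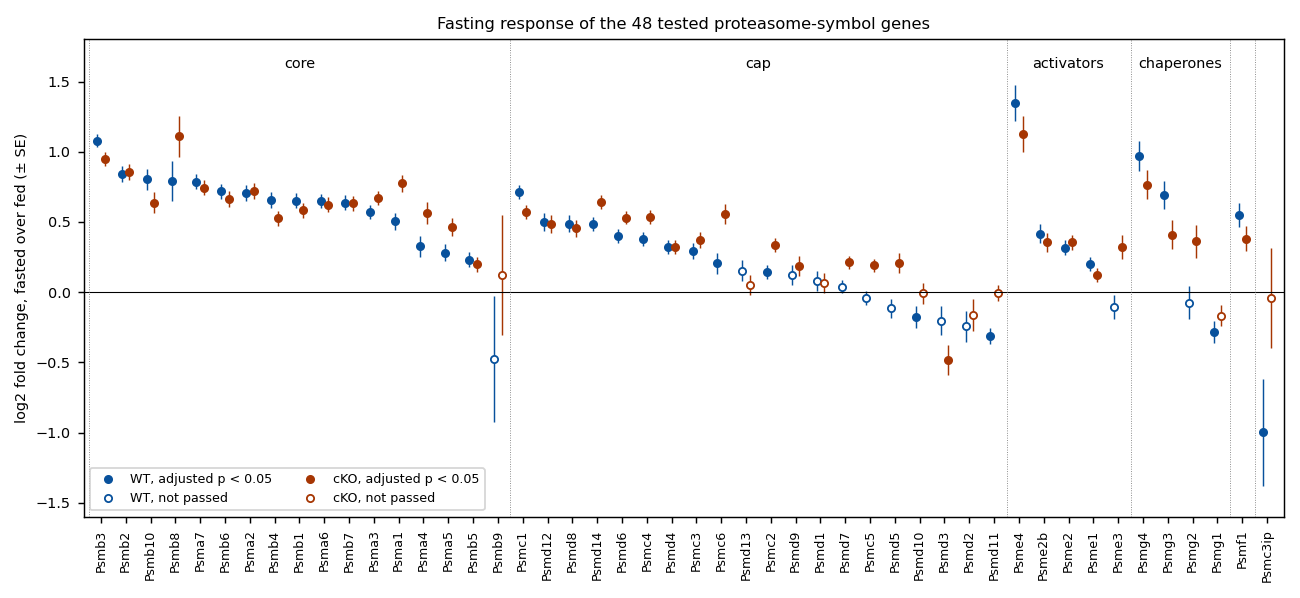
Log2 fold change of fasted over fed mice (y axis, ± SE) for each of the 48 tested genes (x axis), grouped by class and ordered by the WT value; blue marks WT and brown cKO, and filled points passed an adjusted p of 0.05. All but 1 of the 17 core genes lie above 0 with filled points in both genotypes, while the cap spreads from 0.71 to -0.31 in WT.

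Among the core genes, 16 of 17 rose in WT (median log2 0.65) and 16 of 17 in cKO (median 0.64), the exception in both being Psmb9. Psmb3, a structural beta subunit with no cleaving site, rose the most of the core in WT. It stood at 269, 279, 258, 271 and 268 CPM in fed WT and at 542, 565, 561, 604 and 572 in fasted WT (replicates 1 to 5, an order kept below). In cKO it stood at 272, 268, 282, 292 and 289 CPM when fed and 567, 573, 533, 531 and 503 when fasted. Every fasted library was above every fed library of its genotype, a 2.11-fold rise in WT (log2 1.08 ± 0.049, adjusted p = 1.2e-16) and 1.93-fold in cKO (log2 0.95 ± 0.049, adjusted p = 6.26e-15). The other structural beta subunits also rose in both genotypes. Psmb2 rose 1.79-fold in WT, from 451 ± 9.55 to 808 ± 66.3 CPM (log2 0.84 ± 0.056, adjusted p = 3.13e-13), and 1.81-fold in cKO. Psmb4 rose by log2 0.66 and 0.52 and Psmb1 by 0.65 and 0.58 in WT and cKO.

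All 7 alpha subunits, which form the gate of the core, rose in both genotypes. In WT their log2 fold changes ran from 0.28 for Psma5 to 0.79 for Psma7, and in cKO from 0.46 for Psma5 to 0.78 for Psma1. Psma7 went from 344 ± 17.2 to 594 ± 24.6 CPM in WT (adjusted p = 6.3e-13) and from 362 ± 12.4 to 606 ± 46.4 in cKO. The WT calls of Psma5 and Psma4 changed with the scaling. With GC and length offsets, Psma5 was lower in fasted WT (-0.16, adjusted p = 0.00684) and the WT rise of Psma4 did not pass (0.14, adjusted p = 0.0985).

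The standard catalytic subunits Psmb5, Psmb6 and Psmb7 carry the chymotrypsin-like, caspase-like and trypsin-like sites. Psmb6 stood at 526, 543, 492, 519 and 524 CPM in fed and 914, 924, 819, 809.7 and 819.7 in fasted WT, with no overlap (log2 0.72 ± 0.055, adjusted p = 5.46e-12). Its cKO values were 533, 524, 575, 527 and 577 CPM when fed and 842, 969, 883, 819 and 821 when fasted, again without overlap (log2 0.66 ± 0.054). Psmb7 also rose in both genotypes. It went from 261, 268, 282, 265 and 258 to 444, 439, 385, 403 and 403 CPM in WT (log2 0.64 ± 0.054, adjusted p = 5.41e-11) and from 279, 283, 279.8, 267 and 271 to 460.4, 459.7, 426, 402 and 392 in cKO (log2 0.63 ± 0.054). Psmb5, whose site most proteasome inhibitors block, rose least of the 3. It stood at 268, 260.1, 245, 273 and 258 CPM in fed and 323, 339.7, 289, 292 and 288 in fasted WT, where the groups did not overlap (log2 0.23 ± 0.054, adjusted p = 0.000522). In cKO the values were 263, 243, 265, 256 and 269 and 294, 313, 295, 299 and 288 CPM (log2 0.20 ± 0.054, adjusted p = 0.00259). The direction for Psmb5 depends on the scaling: with GC and length offsets it was -0.15 in WT (adjusted p = 0.00955) and 0.0073 in cKO (adjusted p = 0.916). Psmb5 shares 12.1% of its exon bases with the miRNA gene Mir686 on the same strand, and Psmb7 11.8% with Nek6 on the opposite strand, so some of their reads could belong to those genes.

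The promoters of Psmb3, Psmb5 and Psmb6 are shown because they belong to the core gene with the largest WT rise and the standard catalytic subunits that have a promoter entry and hold a listed motif. The stretches run 5′ to 3′ on the gene's strand, end before the first annotated transcript start (sequence from RefSeq, GRCm38.p6), and have in capitals each match to TGACNNNGC, the antioxidant response element core bound by Nfe2l1 and Nfe2l2, or to CCAAT, the NF-Y box, on either strand.
Psmb3 (chr11:97703184-97703398, plus strand): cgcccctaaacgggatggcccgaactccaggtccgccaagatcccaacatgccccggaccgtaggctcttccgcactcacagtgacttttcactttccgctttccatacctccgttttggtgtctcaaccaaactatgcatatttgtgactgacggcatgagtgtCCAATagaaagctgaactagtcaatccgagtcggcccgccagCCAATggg
Psmb5 (chr14:54618023-54618245, minus strand): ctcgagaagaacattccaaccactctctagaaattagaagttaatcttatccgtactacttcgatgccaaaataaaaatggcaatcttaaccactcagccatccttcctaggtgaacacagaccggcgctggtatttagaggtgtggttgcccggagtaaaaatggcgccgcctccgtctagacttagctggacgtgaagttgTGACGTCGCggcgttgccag
Psmb6 (chr11:70525107-70525356, plus strand): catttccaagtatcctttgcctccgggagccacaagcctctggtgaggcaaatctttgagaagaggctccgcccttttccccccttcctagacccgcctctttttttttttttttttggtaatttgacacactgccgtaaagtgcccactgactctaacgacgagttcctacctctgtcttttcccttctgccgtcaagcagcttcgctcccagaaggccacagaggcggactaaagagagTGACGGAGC
Counted from the RefSeq start, Psmb3 holds CCAAT at -85 and -43, Psmb5 holds TGACNNNGC at -47 and Psmb6 at -9. RefSeq windows of 300 bases (250 before to 50 after the start) were found for 42 of the 50 genes, 45 promoters in all. TGACNNNGC was present in 6 of the 45 (13.3%, 12.4% of all 32851 promoters), and its proteasome-gene form TGACTCAGC, a subset of it, in 0 (0.454% of all). CCAAT was present in 8 of 16 core promoters (50%) and 5 of 18 cap promoters (27.8%), beside 37.4% of all. GGGCGG, the Sp1 box, was present in 6 of 16 core (37.5%) and 13 of 18 cap promoters (72.2%), beside 35.7% of all. A match describes these letters and is not a binding site.

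Of the inducible catalytic subunits, which interferon induces to form the immunoproteasome, Psmb8 and Psmb10 rose with fasting and Psmb9 did not pass. Psmb10 stood at 64.9, 71.8, 68.02, 71.4 and 73.3 CPM in fed and 129, 134, 117, 118 and 112 in fasted WT, a 1.74-fold rise without overlap (log2 0.80 ± 0.075, adjusted p = 3.21e-10). Its cKO values were 66.6, 52.1, 66.1, 65.4 and 67.8 when fed and 105, 105, 92.1, 103 and 89.3 when fasted (log2 0.64 ± 0.075, adjusted p = 4.6e-08). Fed and fasted libraries did not overlap in cKO either. Psmb8 was scarce, at 10.5, 9.33, 6.99, 9.66 and 7.79 CPM in fed and 12.7, 17.6, 16.1, 17.8 and 12.6 in fasted WT (log2 0.79 ± 0.14, adjusted p = 2.99e-05). In cKO it went from 6.81, 7.45, 7.64, 7.76 and 7.90 to 15.3, 12.8, 16.6, 19.9 and 16.6 CPM, 2.16-fold (log2 1.11 ± 0.15, adjusted p = 3.17e-07). All fasted libraries lay above the fed ones in each genotype, and 14.7% of the exon bases of Psmb8 overlap Gm20496 on the opposite strand. Psmb9 had 2.14, 0.861, 1.64, 1.25 and 1.37 CPM in fed and 1.87, 1.16, 0.217, 0.338 and 1.66 in fasted WT, and 2.88, 1.06, 1.05, 1.11 and 1.87 and 1.63, 1.90, 2.32, 1.48 and 1.31 in fed and fasted cKO. These groups overlap. The 95% intervals ran from log2 -1.36 to 0.40 in WT and from -0.71 to 0.96 in cKO, and changes within them were not excluded at this depth. As a share of the 6 catalytic subunits, summed per kilobase, the inducible forms made up 6.37% ± 0.24 in fed WT, 7.66% ± 0.18 in fasted WT, 5.69% ± 0.42 in fed cKO and 6.45% ± 0.43 in fasted cKO. In the same libraries the microglial and macrophage marker sum was at most 1.84 CPM while the endothelial and astrocyte sums were higher in fasted than fed WT, as given above, and the part of other cells in these differences was not tested.

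**Figure D2:**
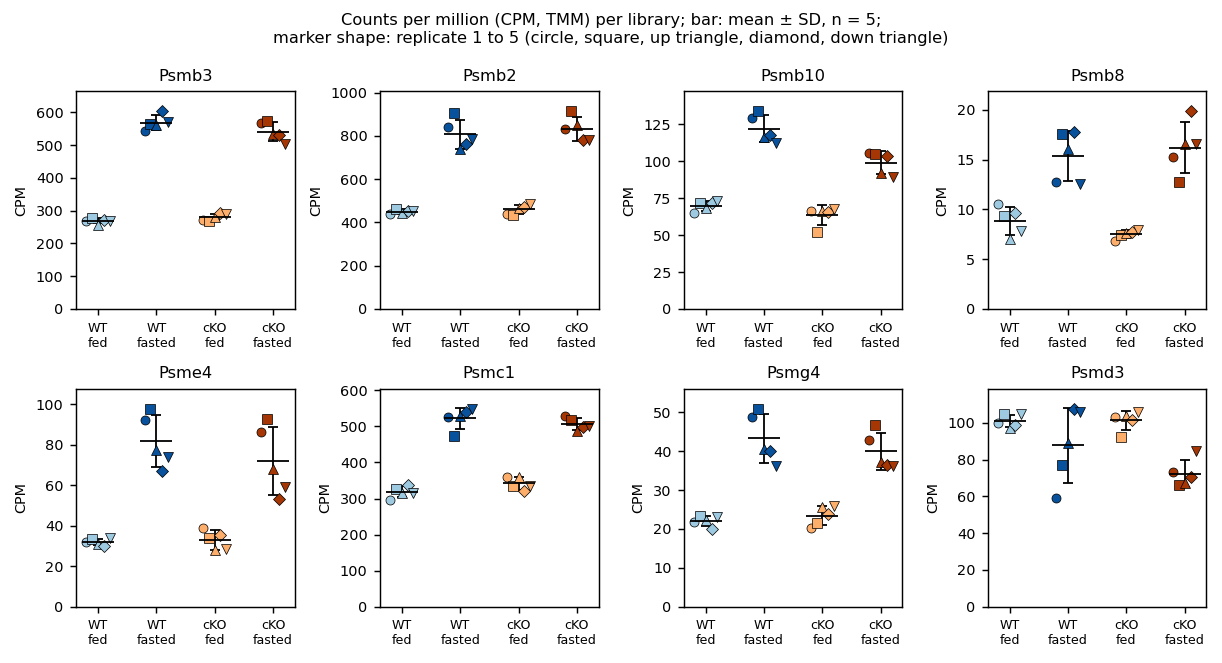
CPM (y axis, from 0) in every library of the 4 groups (x axis) for 8 genes; shapes mark replicates 1 to 5 and bars the mean ± SD. For Psmb3, Psmb2, Psmb10, Psmb8, Psme4, Psmc1 and Psmg4 the fasted libraries lie above the fed ones in both genotypes, while Psmd3 is scattered from 59.1 to 108 in fasted WT and is low in fasted cKO.

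The cap moved less evenly: 10 of its 20 genes rose and 2 fell in WT (median log2 0.15), and 14 rose and 1 fell in cKO (median 0.27). Of the 6 ATPases that unfold substrates, 5 rose in WT and 6 in cKO. Psmc1 rose most in WT, from 296, 328, 316, 338 and 316 to 527, 473, 528, 539 and 548 CPM (log2 0.71 ± 0.052, adjusted p = 1.98e-12). In cKO it went from 342 ± 17.3 to 507 ± 16.2 CPM (log2 0.57 ± 0.051). Psmc4 rose by log2 0.38 and 0.54, and Psmc3 by 0.29 and 0.37, in WT and cKO. The WT rises of Psmc2 (0.14, adjusted p = 0.0148) and Psmc6 (0.21, adjusted p = 0.0163) had overlapping groups and did not pass without fasted WT replicate 2, for Psmc6 also without replicate 1 (adjusted p up to 0.0588 and 0.0893). With GC and length offsets neither passed (0.072 and 0.12). Psmc5, which rose in cKO by log2 0.19, stood at -0.054 with those offsets (adjusted p = 0.317), and in WT it went from -0.041 without passing to -0.40 (adjusted p = 9.36e-09).

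The scaffold subunits of the cap base did not pass in either genotype. Psmd1 stood at 457 ± 15.9 CPM in fed and 483 ± 82.5 in fasted WT, and Psmd2 at 290.3 ± 14.2 and 245 ± 60.5 (adjusted p = 0.354 and 0.0587). The ubiquitin receptor Psmd4 rose in both, by log2 0.32 ± 0.051 in WT and 0.32 ± 0.051 in cKO. In the lid, whose subunit Psmd14 cuts off ubiquitin chains, 4 of 8 genes rose and 1 fell in WT, and 5 rose and 1 fell in cKO. Psmd14 went from 378 ± 13.4 to 529.8 ± 38.2 CPM in WT (log2 0.49 ± 0.051, adjusted p = 2.97e-09) and from 371 ± 7.25 to 579 ± 25.7 in cKO (log2 0.64 ± 0.051, adjusted p = 2.78e-11). Psmd12, Psmd8 and Psmd6 rose by log2 0.50, 0.49 and 0.40 in WT, and by 0.49, 0.46 and 0.53 in cKO.

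A few cap genes went the other way. The lid subunit Psmd11 stood at 128, 140.4, 137, 126 and 131 CPM in fed and 109, 111, 105, 108 and 99.5 in fasted WT, all fasted libraries below the fed ones (log2 -0.31 ± 0.056, adjusted p = 2.38e-05). In cKO it did not pass, with 119, 115, 122, 118 and 113 CPM in fed and 119, 127, 114, 109 and 115 in fasted mice. Psmd3, also of the lid, fell in cKO, from 103, 92.5, 104, 102 and 106 to 73.4, 66.3, 67.1, 70.7 and 84.4 CPM (log2 -0.48 ± 0.10, adjusted p = 0.000299). In WT its values were 100.1, 105, 97.4, 98.6 and 105 when fed and 59.1, 77.2, 89.3, 108 and 106 when fasted, a wide range that overlaps the fed one (adjusted p = 0.0934). The fall of Psmd3 in cKO did not pass with GC and length offsets (-0.21, adjusted p = 0.0578). Of the base assembly factors, Psmd10 (gankyrin) fell in WT by log2 0.18 with overlapping groups (adjusted p = 0.0468), a call lost when any of 10 libraries was left out (adjusted p up to 0.175). Psmd5 and Psmd9 rose in cKO (log2 0.21 and 0.19), and in WT they stood at -0.12 and 0.12 without passing. The cKO rise of Psmd9, which shares 25.5% of its exon bases with Gm26745 on the opposite strand, was lost without any of 5 libraries (adjusted p up to 0.0818).

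**Figure D3:**
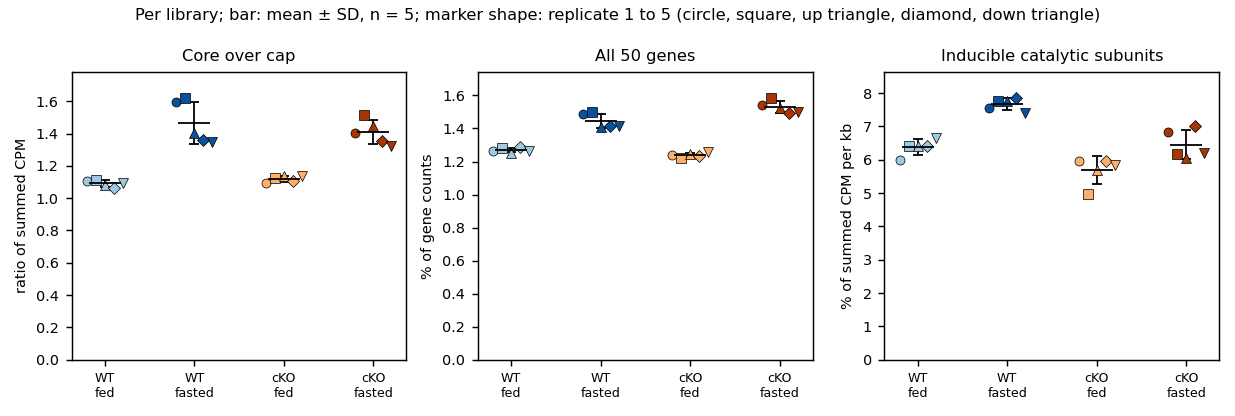
Per library (points, replicates 1 to 5 by shape; bars, mean ± SD) in the 4 groups: the ratio of summed core to summed cap CPM, the share of all gene counts taken by the 50 genes, and the share of Psmb8, Psmb9 and Psmb10 in the summed CPM per kilobase of Psmb5 to Psmb10. The core-to-cap ratio is at most 1.14 in fed and at least 1.32 in fasted libraries.

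The unequal change of core and cap shows in their ratio within each library. Summed core CPM was 5597 ± 106 in fed and 8770 ± 631 in fasted WT, and summed cap CPM 5127 ± 128 and 5994 ± 163. Their ratio was 1.09 ± 0.020 in fed WT (1.06 to 1.11), 1.47 ± 0.13 in fasted WT (1.35 to 1.62), 1.12 ± 0.020 in fed cKO (1.09 to 1.14) and 1.41 ± 0.076 in fasted cKO (1.32 to 1.51). Fed and fasted ranges did not overlap in either genotype. The ratio is a description, with no test. The share of all gene counts taken by the 50 genes was 1.27% ± 0.015 in fed WT, 1.44% ± 0.045 in fasted WT, 1.24% ± 0.014 in fed cKO and 1.53% ± 0.036 in fasted cKO.

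Of the 5 activators, 4 rose in WT and 5 in cKO. Psme4, the large nuclear activator, showed the largest rise of all 48 genes in both genotypes. It stood at 31.9, 33.3, 30.98, 30.2 and 34.1 CPM in fed and 92.3, 97.8, 77.6, 67.2 and 73.8 in fasted WT, 2.54-fold higher (log2 1.35 ± 0.13, adjusted p = 4.12e-10). In cKO it went from 38.9, 33.99, 28.03, 35.5 and 28.3 to 86.1, 92.8, 68.1, 53.5 and 59.3 CPM, 2.19-fold (log2 1.13 ± 0.13, adjusted p = 2.09e-08). No fasted library overlapped a fed one of its genotype, but fasted replicates 1 and 2 were the highest in each. Psme1 and Psme2 form an interferon-inducible ring that serves antigen processing. Psme1 stood at 264, 283, 273, 276 and 278 CPM in fed and 298, 316, 320.3, 323 and 324 in fasted WT (log2 0.20 ± 0.05, adjusted p = 0.000853). In cKO the values were 298, 282, 309, 299 and 309 and 309.7, 358, 324, 306 and 330.2, overlapping, and the call (log2 0.12, adjusted p = 0.0422) was lost without any of 7 libraries (adjusted p up to 0.151). Psme2 went from 207, 219, 201, 206 and 217 to 285, 269, 263, 265 and 228 CPM in WT (log2 0.32 ± 0.056, adjusted p = 1.67e-05) and from 204, 191, 207, 194 and 206 to 263, 268, 262, 244 and 245 in cKO (log2 0.35 ± 0.056, adjusted p = 4.99e-06).

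Psme2b, on another chromosome, is a near-copy of Psme2, so the split of reads between them is uncertain. It stood at 41.8, 43.7, 40.5, 41.7 and 41.9 CPM in fed and 59.1, 57.3, 56.7, 55.5 and 51.2 in fasted WT (log2 0.42 ± 0.069, adjusted p = 7.58e-06), and at 37.2, 42.01, 40.6, 39.6 and 44.9 and 56.1, 52.5, 50.8, 51.5 and 50.5 in cKO (adjusted p = 9.79e-05). With GC and length offsets Psme2b was lower in fasted mice (-0.28 in WT and -0.13 in cKO, adjusted p = 0.00114 and 0.114), and the WT rise of Psme2 did not pass (0.061, adjusted p = 0.328). Psme3, the nuclear ring activator, rose in cKO and did not pass in WT. Its values were 47.2, 51.6, 48.8, 49.5 and 46.6 CPM in fed and 42.7, 44.2, 45.8, 50.7 and 42.8 in fasted WT (log2 -0.11 ± 0.084, adjusted p = 0.274), and 37.8, 46.7, 46.03, 41.4 and 50.3 and 65.1, 50.1, 52.1, 54.4 and 56.7 in cKO (log2 0.32 ± 0.084, adjusted p = 0.00187). Whether the genotypes differ is tested below by the interaction.

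The chaperones that assemble the core split by member. Psmg4 rose 1.96-fold in WT, from 21.7, 23.4, 22.2, 20.02 and 23.1 to 48.9, 50.9, 40.5, 40.1 and 36.2 CPM (log2 0.97 ± 0.10, adjusted p = 5.35e-09). In cKO it went from 20.2, 21.6, 25.6, 23.9 and 25.9 to 42.9, 46.8, 37.3, 36.5 and 36.3 (log2 0.77 ± 0.10, adjusted p = 5.33e-07). Its partner Psmg3 rose as well. Psmg3 stood at 28.5, 30.9, 28.2, 24.1 and 30.4 and 38.8, 46.4, 47.1, 53.5 and 43.4 CPM in fed and fasted WT (log2 0.69 ± 0.10, adjusted p = 1.1e-06) and at 25.9, 26.1, 30.1, 31.1 and 33.5 and 34.4, 35.3, 43.8, 43.2 and 38.2 in cKO (log2 0.41 ± 0.10, adjusted p = 0.00123). Psmg1 and Psmg2 form the other chaperone pair, which builds the alpha ring. Psmg1 fell in WT, from 74.7, 75.6, 74.7, 77.7 and 76.7 to 68.7, 67.2, 63.5, 58.6 and 53.8 CPM (log2 -0.28 ± 0.076, adjusted p = 0.00201), and did not pass in cKO, at 76.1, 66.1, 83.1, 77.9 and 88.3 and 68.4, 69.2, 71.96, 65.1 and 74.1 (adjusted p = 0.065). Psmg2 was split by library in fasted WT, at 112, 109, 63.02, 66.1 and 63.6 CPM against 83.05, 90.9, 87.9, 89.6 and 83.6 when fed (log2 -0.076 ± 0.12, adjusted p = 0.596). In cKO it rose from 90.1, 88.3, 89.7, 84.03 and 84.2 to 118, 118, 117, 102 and 107 CPM (log2 0.36 ± 0.12, adjusted p = 0.0105), a call that GC and length offsets ended (0.045, adjusted p = 0.752). Those offsets also moved the median of the 4 chaperones in WT from 0.31 to -0.11.

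Psmf1 rose in both genotypes, from 67.6 ± 2.13 to 98.9 ± 15.8 CPM in WT (log2 0.55 ± 0.087, adjusted p = 3.42e-06) and from 69.8 ± 5.18 to 91.03 ± 8.21 in cKO (log2 0.38 ± 0.087, adjusted p = 0.000507). Psmc3ip, the meiotic gene, was near the detection limit. It had 2.002, 3.95, 2.64, 4.44 and 2.49 CPM in fed and 2.69, 1.55, 1.63, 0.225 and 1.66 in fasted WT, where 3 reads, the most that a count of 0 allows, equal 0.325 to 0.387 CPM. It fell in WT (log2 -0.999 ± 0.38, adjusted p = 0.0258) with overlapping groups, a call lost without fed replicate 2 or 4 or fasted replicate 4 (adjusted p up to 0.0763), and 21.2% of its exon bases overlap Mlx on the opposite strand. The cKO values were 2.53, 2.70, 4.13, 3.92 and 3.12 and 2.38, 5.06, 3.82, 3.40 and 1.31 CPM (adjusted p = 0.937).

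**Figure D4:**
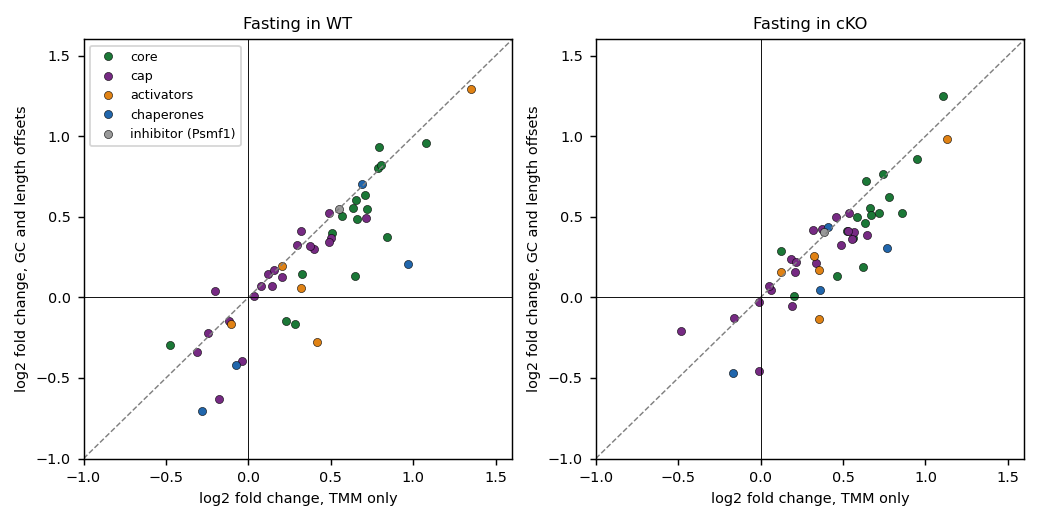
Log2 fold change of fasted over fed mice with TMM scaling alone (x axis) and with GC and length offsets added (y axis) for 47 proteasome genes, coloured by class (Psmc3ip is not drawn). The offsets lowered the value of 35 of the 47 genes in WT and 32 in cKO, and those of Psmb5, Psma5 and Psme2b cross below 0 in WT.

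Proteasome genes are short, with a median of 2804 exon bases beside 4486 over the 12713 tested genes with a gene model, and 2370 for the core. Offsets fitted to GC content and length in each library lowered the core median from 0.65 to 0.50 in WT and from 0.64 to 0.51 in cKO. The core counts became 13 rising and 2 falling of 17 in WT, and 15 and 0 in cKO. For the cap the median went from 0.15 to 0.14 in WT and from 0.27 to 0.23 in cKO, with 9 rising and 3 falling and with 12 rising and 1 falling of 20. For the activators the WT median went from 0.32 to 0.061. Falls that passed with the offsets but not without them included Psmg2 in WT (-0.42) and Psmg1 and Psmd10 in cKO (-0.47 and -0.45). The core remained above the cap in median under these offsets in both genotypes.

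Among fed mice, few of these genes passed between the genotypes. Of 48 genes, 0 were higher in cKO and 1 was lower (edgeR), where 5.87% of all tested genes were higher and 3.81% lower. At an unadjusted p under 0.05 there were 3 of the 48, beside 3086 of all 13237 tested genes. DESeq2 also called 0 and 1, beside 7.26% and 5.02% of all tested genes. The gene that fell was Psmd11, at 132 ± 6.08 CPM in WT and 117 ± 3.49 in cKO (log2 -0.17 ± 0.056, adjusted p = 0.0462), with no overlap. Leaving out any single fed library ended that call (adjusted p up to 0.125). The median over the 48 genes was -0.0050 (core 0.016, cap -0.027).

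Among fasted mice, 8 of 48 genes were higher in cKO and 1 was lower, where 11.5% of all tested genes were higher and 8.84% lower. As shares of the 48 genes these are 16.7% and 2.08%, so the upward share is not far from that of all genes. This comparison uses the fasted libraries of the fasting comparisons above. The Pomc-neuron marker sum was higher in fasted cKO replicates 2 to 5 than in every fasted WT library, and its part here and in the interaction was not tested. The largest difference among the genes that passed was in Psmg2, at 118, 118, 117, 102 and 107 CPM in fasted cKO and 112, 109, 63.02, 66.1 and 63.6 in fasted WT (log2 0.44 ± 0.12, adjusted p = 0.00882). There the cKO libraries lay above WT replicates 3 to 5 but overlapped replicates 1 and 2. Psme3, at 55.7 ± 5.83 against 45.2 ± 3.30 CPM (log2 0.30 ± 0.085, adjusted p = 0.013), and the base assembly factor Psmd5, at 102 ± 7.15 against 83.99 ± 5.53 (log2 0.28 ± 0.069, adjusted p = 0.00532), followed. Psmc6, Psma1, Psmd10, Psmc2 and Psmc5 were higher by log2 0.25, 0.23, 0.22, 0.18 and 0.17. The inducible subunit Psmb10 was lower in cKO, at 99.01 ± 7.68 against 122 ± 9.06 CPM, with no overlap (log2 -0.30 ± 0.075, adjusted p = 0.0051). When only the fasted libraries were fitted, 1 gene was higher (Psmd5) and 1 lower (Psmb10) in place of 8 and 1, and over all tested genes 5.93% were higher and 5.04% lower under that fit.

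The interaction test asks whether fasting moved a gene by a different amount in cKO than in WT. It passed for 6 genes, all with the higher value in cKO, and for 0 in the other direction (edgeR). That is 12.5% of the 48 genes, near the background, since 8.87% of all tested genes passed with the higher value in cKO and 8.44% with the lower. At an unadjusted p under 0.05 in either direction there were 12 of the 48, beside 4093 of all 13237 tested genes. DESeq2 gave 8 and 0, beside 10% and 9.91% of all tested genes. Of the 6 edgeR calls, Psme3 showed the largest difference, log2 0.43 ± 0.12 (adjusted p = 0.0116), with the values given above. Psmd5 stood at 82.3, 91.5, 85.3, 96.6 and 99.9 CPM in fed and 80.1, 78.1, 82.9, 86.9 and 91.9 in fasted WT, and at 89.9, 94.3, 84.8, 87.1 and 84.5 and 108, 91.9, 107, 96.4 and 105 in cKO (log2 0.32 ± 0.096, adjusted p = 0.0194). Psmd11 differed by 0.31 ± 0.08 (adjusted p = 0.00804): it fell in WT, and its fed and fasted cKO values overlapped. The ATPases Psmc5 and Psmc6 were among the 6 too. Psmc5 stood at 549, 569, 547, 583 and 579.9 and 560.0, 526, 564, 569 and 529 CPM in fed and fasted WT, and at 554, 492, 549, 538 and 581 and 601, 632, 612, 627 and 629.7 in cKO (log2 0.23 ± 0.067, adjusted p = 0.015). Psmc6 had 261, 279.9, 269, 283 and 269 and 377, 352, 264, 276 and 302 CPM in WT, and 256, 256, 249.7, 247 and 257 and 385, 391, 398, 331 and 358 in cKO (log2 0.35 ± 0.10, adjusted p = 0.0171). In the core only Psma1 passed, at 427, 436, 420.1, 455 and 430.2 and 688, 688, 542, 579.6 and 579 CPM in WT, and 411, 403, 427, 433 and 429 and 749, 787, 727, 662 and 679 in cKO (log2 0.27 ± 0.086, adjusted p = 0.0289). Psma1 was lost without any of 5 libraries (adjusted p up to 0.0632), and GC and length offsets ended the calls of Psma1 and Psmc6 (adjusted p = 0.0793 and 0.0767). Without fasted WT replicate 1 or 2, other genes passed, among them Psmg2 (adjusted p up to 0.00879).

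**Figure D5:**
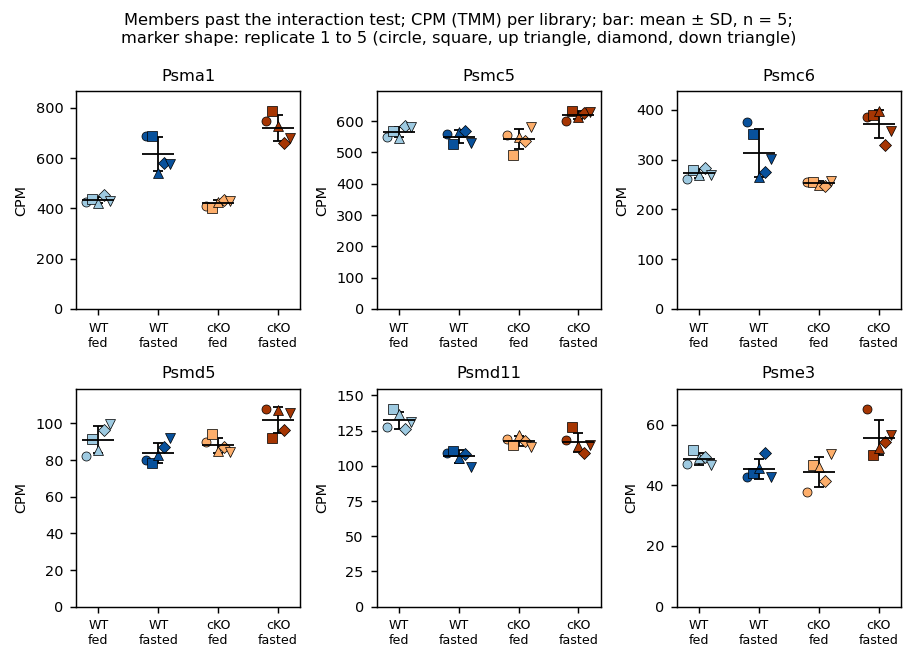
CPM (y axis, from 0) in every library of the 4 groups (x axis) for the 6 genes that passed the interaction test; shapes mark replicates 1 to 5 and bars the mean ± SD. In Psmc5 the 5 fasted cKO libraries lie above those of all other groups, and in Psmd11 the 5 fasted WT libraries lie below the 5 fed WT libraries.

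Fasted WT libraries fell into 2 sets, in these genes and in the table at large. For 33 of the 48, replicates 1 and 2 lay wholly above (25) or below (8) replicates 3 to 5, including 14 of 17 core genes above. These are 52.1% and 16.7% of the 48, and the split was wide over the table too, with 25.6% of all tested genes wholly above and 22.3% wholly below. In fasted cKO this held for 20 genes, 18 above and 2 below (37.5% and 4.17%), beside 17.2% and 17.2% of all tested genes. Psmg2 and Psma4 were higher in WT replicates 1 and 2 by log2 0.78 and 0.42, and Psmd2, Psmd3 and Psmd1 were lower, at -0.67, -0.56 and -0.39. Those sets are a description of the libraries. Without fasted replicates 1 and 2 of both genotypes, 16 of 17 core genes still rose in WT and in cKO, but the interaction was past the threshold for 13 genes upward and 5 downward, where 13.3% and 13.2% of all tested genes passed under that fit. Without replicates 3 to 5 it passed for 9 and 0, beside 8.7% and 7.2% of all tested genes. For Psmd1 the WT fasting difference was 0.23 without replicates 1 and 2 and -0.18 without replicates 3 to 5 (adjusted p = 0.000206 and 0.00165), and for Psmg2 the values were -0.44 and 0.33 (adjusted p = 3.54e-07 and 8.78e-05).

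Other parts and partners of the proteasome lie outside the symbol rule. Of 12 such genes, 5 rose, 1 fell and 6 did not pass in WT, and 8 rose and 1 fell in cKO (medians 0.22 and 0.32). Over all tested genes, as above, 29.6% rose and 31.3% fell in WT and 26% and 27% in cKO, which is the background for the 3 further lists below as well. Pomp, the factor that matures the core, went from 293 ± 11.1 to 533 ± 35.4 CPM in WT (log2 0.86 ± 0.057, adjusted p = 3.09e-13) and rose by log2 0.75 in cKO. Txnl1 and Shfm1, a thioredoxin and a small lid subunit, rose by 0.71 and 0.63 in WT and 0.67 and 0.71 in cKO. The ubiquitin receptor Adrm1 and its partner deubiquitinase Uchl5 rose by 0.33 and 0.46 in WT, while the ubiquitin ligase Ube3c fell (-0.40 ± 0.08). Between the genotypes 0 of the 12 passed in fed mice (edgeR), and 3 had an unadjusted p under 0.05, beside 3086 of all 13237 tested genes. In fasted mice Zfand5 and Usp14 were higher in cKO (0.67 and 0.19) and Zfand2a lower (-0.37).

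Nfe2l1, the transcription factor known to raise proteasome genes when the proteasome is inhibited, fell in transcript. It went from 59.1 ± 6.61 to 36.4 ± 3.57 CPM in WT (log2 -0.70 ± 0.083, adjusted p = 3.25e-08) and from 58.4 ± 1.91 to 37.9 ± 2.78 in cKO (log2 -0.62 ± 0.083, adjusted p = 3.76e-07). Of 14 genes of its pathway, 4 rose and 5 fell in WT, and 3 rose and 5 fell in cKO (medians 0.12 and -0.19), shares near that background. Vcp, the extractor of membrane proteins that releases it, fell (-0.40 in WT and -0.36 in cKO), and the Vcp cofactor Ufd1l rose (0.75 and 0.62). In fed mice the small Maf partners Maff and Mafk were higher in cKO (1.44 and 0.81), and in fasted mice Mafk, Nploc4 and Ufd1l were lower (-0.90, -0.37 and -0.16). Maff was near the detection limit, at 0.731 ± 0.331 CPM in fed WT and 1.98 ± 0.553 in fed cKO. Mafk rose in WT (4.44 ± 0.603 to 12.02 ± 2.26 CPM, log2 1.44 ± 0.18, adjusted p = 1.01e-07) and did not pass in cKO (7.80 ± 1.06 to 6.42 ± 1.71 CPM), and the interaction passed (log2 -1.71 ± 0.26, adjusted p = 3.4e-05).

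Of 11 ubiquitin and shuttle genes, 5 rose and 3 fell in WT and 4 rose and 2 fell in cKO (medians -0.0096 and 0.072). The genes encoding ubiquitin, whose near-identical coding repeats make their reads uncertain, include Ubb, which rose by 0.42 in WT and 0.23 in cKO, and Rps27a, which rose by 0.80 and 0.70. The shuttle factor Ubqln2 was higher in fed cKO than in fed WT (0.23 ± 0.073). Uba6, an E1 enzyme that activates ubiquitin, fell in WT from 83.7 ± 2.96 to 44.4 ± 8.99 CPM and did not pass in cKO, at 72.5 ± 2.22 and 76.3 ± 12.6 (interaction log2 0.99 ± 0.15, adjusted p = 3.04e-05).

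Interferon-response partners of the immunoproteasome split. Of 9 tested, 4 rose and 4 fell in WT, and 3 rose and 4 fell in cKO (medians -0.41 and -0.13). Irf9 and Irf1, transcription factors of that response, fell by 1.90 and 0.82 on the log2 scale in WT and by 1.03 and 0.95 in cKO. The interaction passed for Irf9 (log2 0.86 ± 0.13, adjusted p = 5.46e-05). B2m, the light chain of MHC class I, rose from 203 ± 5.35 to 522 ± 92.96 CPM in WT (log2 1.36 ± 0.079, adjusted p = 2.71e-14) and by log2 1.26 in cKO. H2-K1, a class I heavy chain whose reads can be shared with related class I genes, rose by 1.08 in WT and 0.95 in cKO.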

How the data were processed

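RNA-seq was analysed from 20 libraries (4 groups of 5) of sorted AgRP neurons. The submitters' processing notes name Trimmomatic 0.36, HISAT2 2.1.0, featureCounts, Subread 1.6.2, DESeq2 1.20.0 and the GRCm38 genome, without settings. The kit does not mark strand. The deposited table holds whole-number counts per gene. A second deposited table, of normalized signal, equals those counts divided by 1 size factor per library (0.734 to 1.39) and was not tested.

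Counts were tested with edgeR 4.0.16 (R 4.3.3): TMM scaling, filterByExpr (minimum count 10, minimum total 15), group means over all 20 libraries, the quasi-likelihood test and Benjamini-Hochberg adjustment over 13237 genes at 0.05. CPM used TMM-scaled library sizes, and ± after a log2 fold change is its standard error. A count of 0 allows 3 reads, or 0.207 to 0.387 CPM on that scale. Genes were matched to GENCODE M21 (GRCm38) for length, GC content and overlap (22071 of 23129 symbols, all 50 proteasome genes); overlap above 10% of exon bases is stated where values are given. The table held 27 rows whose symbols had become dates, which stayed in the fit unnamed.

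Other settings were DESeq2 1.42.0, upper-quartile scaling, other filters, a robust fit, smaller fits, a replicate block, GC and length offsets, and fits without libraries. The fitting was tested on simulated data, which did not hold the split of the fasted libraries described above and so cannot show how the calls fare under it. Values in every library are given for the 3 largest rises and falls that passed in each comparison, the catalytic subunits, activators, chaperones and interaction genes. Genes and lists were chosen with earlier results of these data known, so no list was tested as a set. Limits from a count of 0 cover counting error only.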

Additional observations from a re-analysis of the deposited data

Results flagged for a closer look

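Of 192 groups of 5 values (48 genes in 4 groups), 4 (2.08%) held a library whose gap to its nearest neighbour was over 0.71 of the group's range, where chance gives about 1 in 20. These were Psmb10 at 52.1 CPM in fed cKO replicate 2, Psmc1 at 473 CPM in fasted WT replicate 2, Psmd1 at 454 CPM in fasted cKO replicate 2 and Psmd14 at 358 CPM in fed cKO replicate 1. Each was the lowest value of its group.

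The fasting response differed between the genotypes by the interaction test for 6 genes, each with the higher value in cKO: Psme3 by 0.43, Psmc6 by 0.35, Psmd5 by 0.32, Psmd11 by 0.31, Psma1 by 0.27 and Psmc5 by 0.23 on the log2 scale. These are 12.5% of the 48 genes, near the background of 8.87% of all tested genes upward, with 8.44% downward. Psmd11 fell in WT, Psma1 and Psmc6 rose in both genotypes, and Psmc5, Psmd5 and Psme3 rose in cKO without passing in WT. The WT rise of Psmc6 was lost without fasted WT replicate 1 or 2. The interaction call of Psma1 was lost without any of 5 libraries, and GC and length offsets ended those of Psma1 and Psmc6.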

How the results depend on the processing

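Across the 20 fits that each left out a library, proteasome genes rising with fasting numbered 31 to 34 in WT and 37 to 39 in cKO, and those falling 2 to 6 and 1 to 2. Over all tested genes 28.3% to 29.6% rose and 29.3% to 31.5% fell in WT, and 24.2% to 26.3% and 24.4% to 27.4% in cKO. In fed mice 0 were higher and 0 to 1 lower in cKO, beside 4.25% to 6.45% and 2.49% to 4.64% of all tested genes. In fasted mice 6 to 12 were higher and 1 to 3 lower, beside 8.72% to 13% and 6.42% to 10.9%. The interaction gave 5 to 10 upward and 0 to 1 downward, beside 7.48% to 10.7% and 6.99% to 9.5%. Of 240 gene and comparison pairs, 30 changed their call in at least 1 of these fits, 0 with a change of sign. The cause was not tested for these or the changes below.

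Fasted cKO against WT gave 2 genes lower with DESeq2 and 2 with upper-quartile scaling (10.6% and 11.9% of all tested genes). Without fasted replicates 1 and 2, 6 were lower (12.6% of all). With only its own groups fitted, 1 was higher (5.93%). Fed cKO against WT gave 0 lower without a filter (2.33% of all tested genes). With only its own groups it gave 2 higher and 3 lower (11.7% and 11.1% of all). It gave 2 and 2 without fasted replicates 1 and 2 (10.1% and 8.47%). Without replicates 3 to 5 it gave 2 and 3 (10.1% and 8.51%). With GC and length offsets 2 were lower (4.56%). Falling with fasting in cKO were 2 with upper-quartile scaling, with the offsets and without replicates 3 to 5 (29.5%, 25.9% and 27% of all). In WT 9 fell with the offsets (30.5% of all). The interaction passed for 13 upward and 5 downward without replicates 1 and 2 (13.3% and 13.2% of all).

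Values that turned with the offsets were Psme2b in WT (-0.28) and cKO (-0.13), Psmb5 (-0.15) and Psma5 (-0.16) in WT and Psmc5 in cKO (-0.054). Without replicates 3 to 5, Psmd1 turned to -0.18 and Psmg2 to 0.33 in WT, and Psmd1 to 0.20 between fasted genotypes and 0.23 in the interaction.

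Offsets together with leaving out fasted replicates 1 and 2, chosen after seeing the data, gave 9 falling in WT and 3 in cKO. Over all tested genes 30.2% and 23.8% fell under that fit. It gave 2 higher and 8 lower in fed cKO (10.6% and 9.77% of all) and 9 lower in fasted cKO (13.5%). The interaction gave 14 up and 5 down (12.9% and 13.6% of all). Turned in WT were Psme2b (-0.22), Psmd3 (0.20), Psmc6 (-0.032), Psmb5 (-0.20), Psma5 (-0.24) and Psma4 (-0.025). In cKO these were Psme2b (-0.18), Psmc5 (-0.045), Psmb5 (-0.024) and Psmg2 (-0.013), and elsewhere Psma6 in fed mice (-0.087) and the Psmb5 interaction (0.18).

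Replicate numbers were not taken to pair the libraries: same-number correlations ran from -0.045 to 0.13 and 2 exceeded 0.1, both between the fasted genotypes, where all were positive (0.022 to 0.13). With the replicate number as a block, 33 rose and 5 fell in WT and 39 and 1 in cKO. Over all tested genes 29.5% and 31.6%, and 26% and 27.4%, did so. Between genotypes 0 and 0 differed in fed mice (6.09% and 3.87% of all) and 8 and 2 in fasted mice (11.8% and 9.28%). The interaction passed for 7 and 0 (9.04% and 8.69%). Among the tested genes of the symbol rule, depth limits Psmb9 and Psmc3ip, at no more than 2.88 and 5.06 CPM in any library.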
